A study of Mus musculus with 8 samples.

Results

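The DEAD and DEAH box proteins are enzymes that use ATP to open RNA duplexes or to strip proteins from RNA, and they take part in nearly every step of RNA life, from transcription and splicing to ribosome assembly, export, translation and decay. They are named after the amino acid letters of a conserved motif of the ATP-binding core. Ribosome assembly in the nucleolus uses many of them, each at its own step, and MYC is known as an activator of genes for ribosome assembly. The genes described here are those whose symbol starts with Ddx or Dhx followed by a digit, with Ddx3y left out, and which had a probe set annotated to that gene alone; where a gene had several such probe sets, the one with the highest mean over all arrays was taken. This gave 51 of the 19937 genes measured, 35 with a Ddx symbol and 16 with a Dhx symbol. The choice rests on the symbols, not on the protein motif, and the eIF4A genes, which also encode DEAD box proteins, are outside it.

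Total RNA was measured on 8 Affymetrix Mouse Gene 1.0 ST arrays, 1 array per sample. Of these, 4 held c-MYC liver tumours, harvested at the humane endpoint, and 4 held Control Liver samples, normal livers of matched mice. The tumour model overexpresses human c-MYC in the liver from the CEBPB-LAP promoter with doxycycline control. The labels print this description for all 8 samples, so they do not settle whether the control mice carried the transgene or received doxycycline, and they give neither age, strain nor sex. Values are log2 intensities as the authors deposited them, and a log2 change is always tumours minus controls. Nothing in the labels says which mouse each sample came from, and the p-values here reflect only how much these samples differ among themselves, which may be technical. Intensities depend on the probes as well as on the RNA, so levels of different genes are not compared.

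Arrays had medians of 6.33 to 6.44 and interquartile ranges of 2.04 to 2.42. Control liver 3 stood apart in sex-linked genes: Xist read 11.89 there and 4.86 to 7.12 on the other 7 arrays, while the Y-linked genes Eif2s3y, Kdm5d and Uty read 3.46, 5.39 and 3.87 there and at least 7.62 elsewhere. Of the hepatocyte markers Alb, Apoa1, Ttr, Hnf4a, Cps1 and Cyp2e1, all 6 were lower in tumours, though Alb still read 12.21 to 12.77 in tumours, against 12.94 to 13.03 in controls. The Hnf4a call was lost without any 1 array other than tumour 1, the Apoa1 call was lost without control 1 or 4 or tumour 4 and the Cps1 call without control 2 or tumour 4. The mean level of this list was 10.63 to 10.83 in tumours and 12.09 to 12.33 in controls. The proliferation markers Mki67, Top2a and Cdk1 were all higher in tumours, with a mean level of 9.56 to 9.93 in tumours and 5.31 to 6.14 in controls. Of 6 T and B cell markers none passed the test (mean level 5.52 to 5.68 in tumours and 5.50 to 5.74 in controls). On all 8 arrays Cd79a (4.01 to 4.84) and Cd3d (4.75 to 5.31) lay within the span of the Y-linked genes on control liver 3. Ms4a1 did so on some arrays. Cd79a and Cd3d are therefore not shown to be above background. Of 4 bile duct markers 1 was higher and 1 lower (mean level 6.06 to 6.46 in tumours and 6.08 to 6.21 in controls). Of 5 endothelial and of 5 stellate cell and fibroblast markers 2 each were lower and none higher. Over all 19937 genes tested, 16.2% were higher and 12.7% lower in tumours. The part of these cell type differences in the helicase changes was not tested. In bulk samples of this kind, fewer cells of a type and less RNA per cell cannot be told apart.

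Most of the change among the helicase genes was upward. In limma's test with Benjamini-Hochberg adjustment over all 19937 genes and a threshold of 0.05, 22 of the 51 genes (43.1%) were higher in tumours, where 16.2% of all genes tested were higher, and 2 (3.92%) were lower, where 12.7% of all genes were lower. In either direction 24 passed (47.1%, against 28.9% of all genes), and the other 27 did not. The log2 change was above 0 for 39 of the 51 (76.5%), against 44.1% of all genes, and its median was 0.31 over the helicase genes and -0.035 over all genes. The groups did not overlap for 25 helicase genes (49.0%, against 30.2% of all genes): the tumours were above in 22 (43.1%, against 16.3% of all genes) and below in 3 (5.88%, against 13.9%). A rise of at least 2-fold past the threshold was found for 9 helicase genes (17.6%, against 5.54% of all genes) and a fall of that size for none (4.68% of all genes). The 35 Ddx genes had 18 higher and 2 lower, with a median change of 0.36, and the 16 Dhx genes had 4 higher and none lower, with a median of 0.13. Between these 2 sets of symbols no difference was tested. The counts by role and by partner list given below stand beside the same shares of all genes, 16.2% higher and 12.7% lower.

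**Figure D1:**
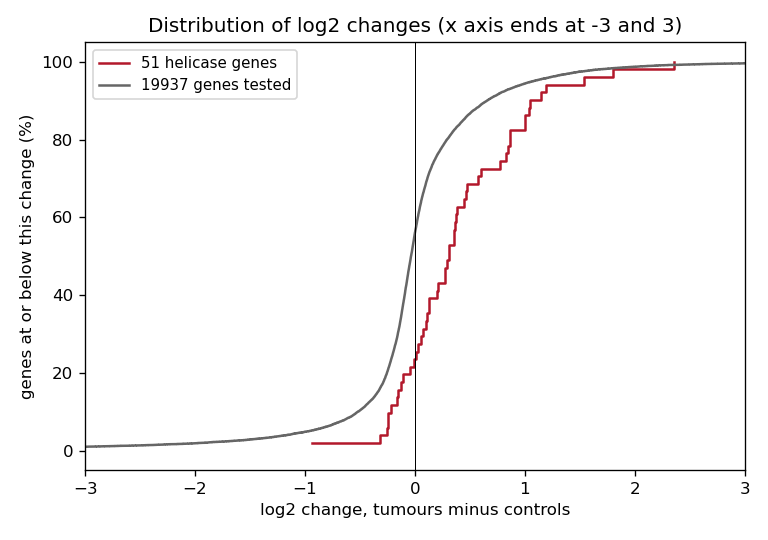
Cumulative share of genes (y axis, percent) at or below each log2 change, tumours minus controls (x axis), for the 51 helicase genes and for all 19937 genes tested. The helicase curve lies to the right of the curve of all genes over most of its range, with medians of 0.31 and -0.035, and its lowest value is -0.94.

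**Figure D2:**
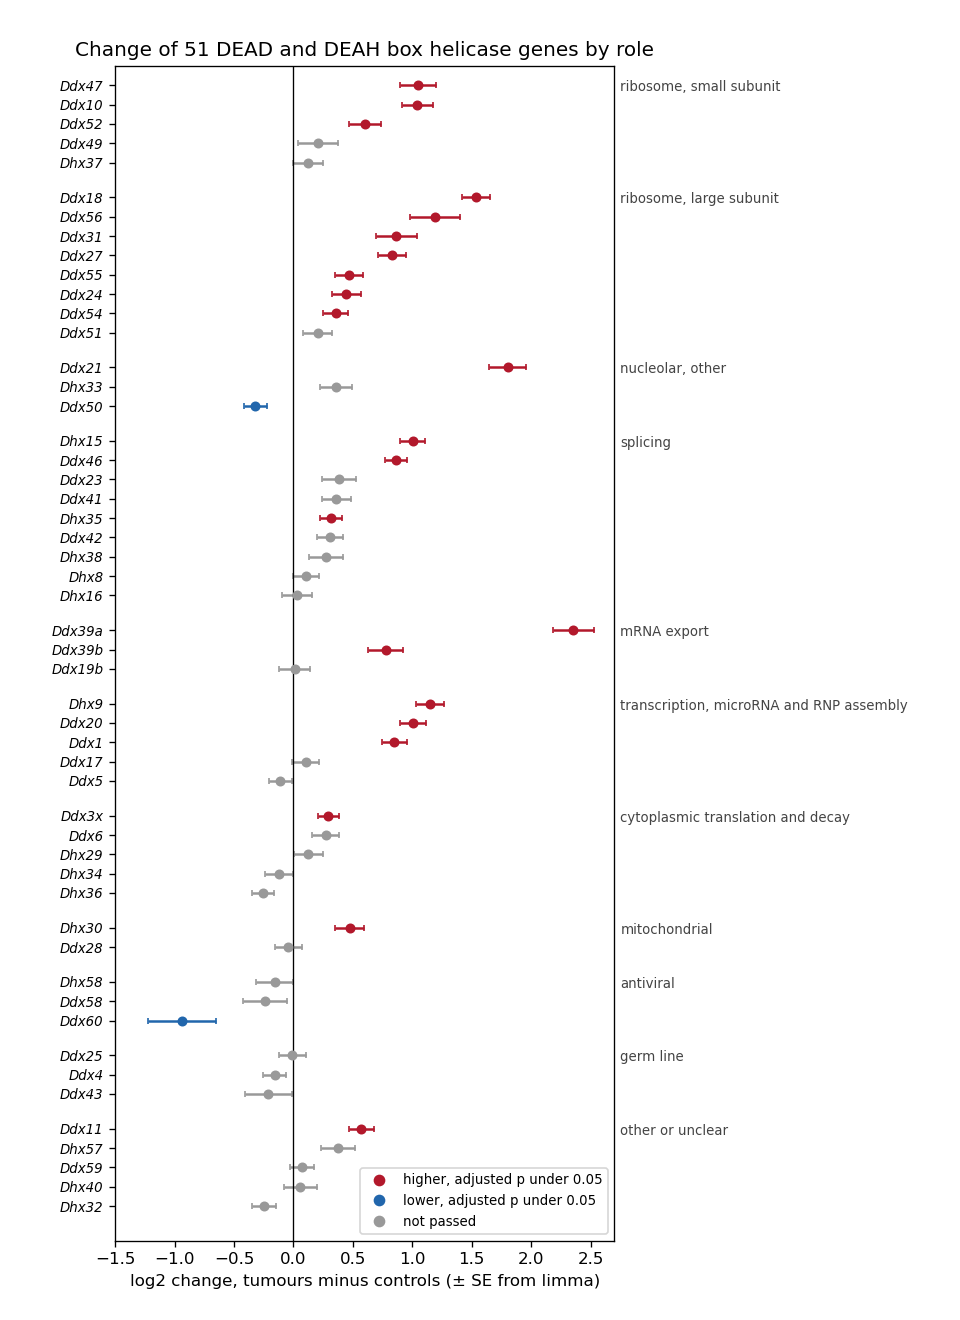
Log2 change, tumours minus controls, of each of the 51 helicase genes, grouped by role, with bars of ± SE from limma. Red points passed the threshold upward (22 genes), blue points downward (Ddx50 and Ddx60) and grey points did not pass (27 genes). The ribosome groups lie wholly to the right of 0, and the antiviral and germ line groups wholly to the left.

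The promoter sequences of a few of these genes are shown first, because MYC and its partner MAX are known to bind the E-box CACGTG and the tumours are driven by MYC. RefSeq windows from 250 bases before to 50 bases after a start site (build GRCm38.p6) were matched for 45 of the 51 genes. The motif CACGTG, which reads the same on both strands, was present in at least 1 window of 7 of these 45 genes (15.6%), against 9.52% of the 15562 measured genes with a window and 8.09% of all 27025 genes with one. It was present for 1 of 20 genes higher in tumours (5.0%), for none of the 2 lower, and for 6 of the 23 that did not pass (26.1%). Some genes had several windows. Counted by window, it was in 1 of 21 (4.76%) for the higher genes and in 6 of 32 (18.8%) for those that did not pass. The higher genes Ddx39a, with the largest rise, and Ddx11 had no window. The 1 higher gene with the motif was Dhx35, with 2 copies at positions -140 and -90 from the start site. Ddx21, with the second largest rise of the 51 genes, had none, nor had its neighbour Ddx50, which fell. The genes Ddx21 and Ddx50 lie side by side on chromosome 10, with 0 annotated genes between them, and both read from the minus strand. The nucleolar gene Dhx33, which did not pass, had 1 copy at -35. The 250 bases before the start site of these 4 genes are given here in lower case, 5′ to 3′ on the gene's strand, with CACGTG in capitals. They are Dhx35 (chr2:158794557-158794806, plus strand), Dhx33 (chr11:71004433-71004682, minus strand), Ddx21 (chr10:62602299-62602548, minus strand) and Ddx50 (chr10:62651219-62651468, minus strand, the outer of 2 start sites).
Dhx35: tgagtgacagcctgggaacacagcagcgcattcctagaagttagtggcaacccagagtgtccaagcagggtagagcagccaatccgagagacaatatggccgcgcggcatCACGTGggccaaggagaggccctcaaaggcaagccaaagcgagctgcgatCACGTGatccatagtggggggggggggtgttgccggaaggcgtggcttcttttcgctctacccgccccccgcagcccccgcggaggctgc
Dhx33: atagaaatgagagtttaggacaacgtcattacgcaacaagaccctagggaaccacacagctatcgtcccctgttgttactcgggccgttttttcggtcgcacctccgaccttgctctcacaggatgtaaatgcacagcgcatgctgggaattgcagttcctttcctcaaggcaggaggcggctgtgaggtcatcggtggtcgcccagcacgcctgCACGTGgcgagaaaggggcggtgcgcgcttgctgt
Ddx21: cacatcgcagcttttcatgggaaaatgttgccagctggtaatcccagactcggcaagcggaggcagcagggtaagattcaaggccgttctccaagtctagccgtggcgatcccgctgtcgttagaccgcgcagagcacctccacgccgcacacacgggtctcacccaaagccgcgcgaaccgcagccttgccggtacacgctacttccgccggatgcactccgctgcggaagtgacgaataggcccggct
Ddx50: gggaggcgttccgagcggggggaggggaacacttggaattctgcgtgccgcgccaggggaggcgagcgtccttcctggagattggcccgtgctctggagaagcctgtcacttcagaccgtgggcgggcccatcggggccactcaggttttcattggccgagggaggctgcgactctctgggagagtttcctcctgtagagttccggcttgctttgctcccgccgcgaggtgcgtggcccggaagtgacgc
A match of letters is not a measured binding site, and a window without it says nothing of sites elsewhere in the gene.

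Helicases of the small ribosomal subunit had 3 of 5 members higher in tumours, none lower and a median log2 change of 0.60. Their roles are best known from yeast, where counterparts remove guide RNAs or rearrange the early precursor of the small subunit. Ddx47 read 9.28, 8.92, 9.08 and 9.001 in tumours 1 to 4, against 7.73, 7.79, 8.23 and 8.32 in controls 1 to 4. Each tumour was above each control, by a mean of 1.05 (SE 0.15, 2.07-fold, adjusted p = 0.000399). Ddx10, counterpart of yeast Dbp4, read 10.19, 9.92, 9.89 and 9.89 in tumours, against 8.94, 8.73, 9.25 and 8.81 in controls. Its change was nearly the same size, at 1.04 (SE 0.13, adjusted p = 0.000154). Ddx52, counterpart of yeast Rok1, read 8.46, 8.48, 8.47 and 8.22 in tumours and 7.94, 7.51, 8.11 and 7.67 in controls. Here the highest control came within 0.2 of the lowest tumour, and the change was 0.60 (SE 0.14, adjusted p = 0.007). Ddx49 and Dhx37, counterparts of yeast Dbp8 and Dhr1, overlapped between groups, with changes of 0.21 (adjusted p = 0.431) and 0.13 (adjusted p = 0.535).

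Among the 8 helicases of the large ribosomal subunit, 7 were higher in tumours and none lower, with a median change of 0.65 and a range of 0.20 to 1.54. Ddx18, counterpart of yeast Has1, which acts on precursors of both subunits, read 9.87, 9.60, 9.84 and 9.63 in tumours, against 8.16, 7.98, 8.35 and 8.31 in controls. The tumours lay more than a full log2 unit above every control, and the rise was 2.90-fold (log2 change 1.54, SE 0.12, adjusted p = 4.24e-06). A second probe set annotated to Ddx18 gave a smaller change of 1.06, also with no overlap. Ddx56, counterpart of yeast Dbp9, read 8.53, 7.91, 8.45 and 7.57 in tumours, against 6.91, 6.78, 6.77 and 7.24 in controls. Tumours 1 and 3 were high and tumours 2 and 4 nearer to the controls, and the change was 1.19 (SE 0.21, adjusted p = 0.00144). Ddx31, counterpart of yeast Dbp7, read 7.17, 6.93, 7.04 and 6.52 in tumours and 5.62, 6.13, 6.20 and 6.25 in controls. Tumour 4 was the lowest tumour here too, and the change was 0.87 (SE 0.17, adjusted p = 0.00324). Of the others, Ddx27, counterpart of yeast Drs1, rose by 0.83 (SE 0.12), Ddx55, counterpart of yeast Spb4, by 0.46 (SE 0.12), Ddx24, counterpart of yeast Mak5, by 0.44 (SE 0.12) and Ddx54, counterpart of yeast Dbp10, by 0.35 (SE 0.10). The Ddx24 groups overlapped, since tumour 4 read 7.497 and control 4 7.51, and the call was lost without control 1 or without tumour 1, 2 or 3 (highest adjusted p = 0.0608). The Ddx54 call was lost without control 2 or 3 or tumour 1 or 4 (highest adjusted p = 0.0787), and a second probe set of Ddx54 changed by 0.15. Ddx51, counterpart of yeast Dbp6, changed by 0.20 and did not pass (adjusted p = 0.269).

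Of 3 further nucleolar helicases 1 was higher, 1 lower and 1 did not pass. Ddx21, which acts in transcription and processing of ribosomal RNA, read 9.84, 9.63, 9.65 and 9.35 in tumours, against 8.11, 7.44, 7.94 and 7.77 in controls. The lowest tumour was more than 1 log2 unit above the highest control, and the rise was 3.48-fold (log2 change 1.80, SE 0.16, adjusted p = 1.1e-05). Its paralogue and neighbour Ddx50 read 9.52, 9.498, 9.28 and 9.40 in tumours, against 9.86, 9.69, 9.698 and 9.73 in controls. All tumours were below all controls, by a small margin, and Ddx50 fell by 0.32 on the log2 scale (SE 0.09, adjusted p = 0.0271), a call lost without control 1, control 4 or tumour 3 (highest adjusted p = 0.0886) and with the replicate number as a block. Dhx33, which acts in transcription of ribosomal DNA, changed by 0.36 and did not pass (adjusted p = 0.071), with control 4 at 7.44 and the other controls at 7.10 to 7.15. Together, the 16 ribosome and nucleolar helicases had 11 higher and 1 lower, with a median change of 0.53, and the other 35 genes had 11 higher and 1 lower, with a median of 0.13.

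**Figure D3:**
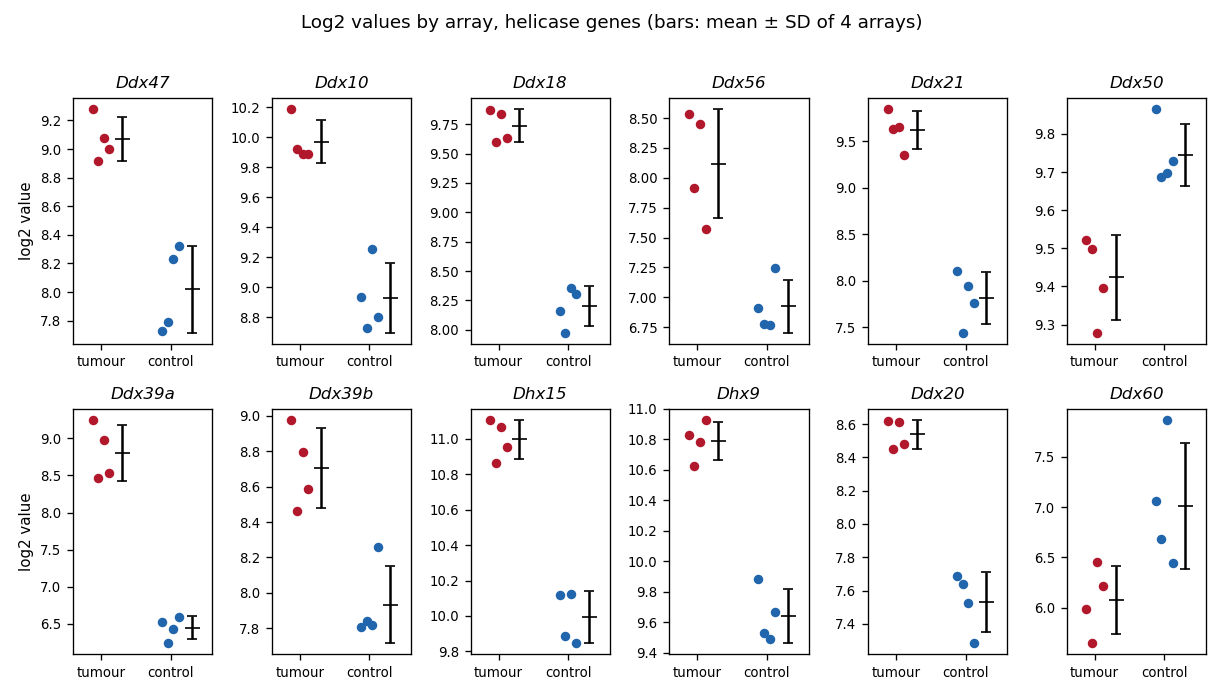
Log2 values of 12 helicase genes on each of the 8 arrays (y axes, each with its own range), tumours left and controls right, with the mean ± SD of 4 arrays. Tumours are wholly above controls for Ddx47, Ddx10, Ddx18, Ddx56, Ddx21, Ddx39a, Ddx39b, Dhx15, Dhx9 and Ddx20 and below them for Ddx50, while the groups overlapped for Ddx60.

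Among 9 spliceosome helicases, 3 were higher and none lower, and all 9 changes were above 0 (0.032 to 1.00, median 0.31). Dhx15, counterpart of yeast Prp43, which takes spliceosomes apart and also acts on ribosome precursors, read 11.11, 10.86, 11.07 and 10.96 in tumours, against 10.12, 9.88, 10.12 and 9.85 in controls. Tumours were about 1 log2 unit higher throughout, and the rise was 2.01-fold (log2 change 1.00, SE 0.11, adjusted p = 4.47e-05). Ddx46, counterpart of yeast Prp5, which helps to choose the branch site, read 9.91, 9.84, 9.77 and 9.89 in tumours and 9.04, 8.82, 9.08 and 9.02 in controls. The tumours were tightly grouped (SD 0.06, n = 4) and 0.86 higher (SE 0.09, adjusted p = 5.52e-05). Dhx35, found in active spliceosomes and shown above with 2 E-boxes, read 7.24, 7.04, 7.17 and 7.16 in tumours and 6.74, 6.82, 6.91 and 6.88 in controls. The groups did not overlap, but the change was only 0.31 (SE 0.09, adjusted p = 0.0235) and the call was lost without control 1 or 2 or tumour 1 or 3 (highest adjusted p = 0.0697). Spliceosome helicases without a Ddx or Dhx symbol are not among these 9. Of those, Snrnp200 rose by 0.80 (SE 0.12, adjusted p = 0.000414) and Aqr by 1.14 (SE 0.17). The other 6 of the 9 spliceosome helicases with a Ddx or Dhx symbol did not pass. Among them, Dhx8, counterpart of yeast Prp22, read 7.50, 7.58, 7.44 and 7.14 in tumours and 7.23, 7.32, 7.34 and 7.34 in controls (change 0.11, adjusted p = 0.537). Dhx38, counterpart of yeast Prp16, read 7.53, 7.17, 7.08 and 7.13 in tumours and 7.21, 6.61, 6.99 and 7.01 in controls (change 0.27, adjusted p = 0.21). Dhx16, counterpart of yeast Prp2, changed by 0.032 (adjusted p = 0.892). Ddx23, counterpart of yeast Prp28, had all tumours above all controls but did not pass (change 0.38, adjusted p = 0.0734), and Ddx41 (0.36, adjusted p = 0.0539) and Ddx42 (0.31, adjusted p = 0.0569) fell just short.

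The largest rise of all 51 genes was that of Ddx39a, which encodes 1 of the 2 close paralogues that load export adaptors onto messenger RNA. It read 9.25, 8.46, 8.97 and 8.53 in tumours, against 6.53, 6.24, 6.43 and 6.59 in controls. The gap between the lowest tumour and the highest control was larger than the spread within either group, and the rise was 5.12-fold (log2 change 2.36, SE 0.17, adjusted p = 3.68e-06). The other paralogue, Ddx39b, read 8.98, 8.47, 8.80 and 8.59 in tumours, against 7.81, 7.84, 7.82 and 8.26 in controls. It also rose without overlap, by 0.77 (SE 0.14, 1.71-fold, adjusted p = 0.00204). Ddx19b, counterpart of yeast Dbp5, which releases export factors at the nuclear pore, changed by 0.010 (adjusted p = 0.969). Its close relative Ddx19a was not analysed here, and how far the Ddx19b probes also detect it was not tested. Of the TREX complex, with which Ddx39b works, 7 of 8 measured genes were higher and none lower (median change 0.52). They were led by Alyref, the export adaptor (1.14, SE 0.13), Thoc3 (0.72, SE 0.19) and Thoc7 (0.64, SE 0.11). The call of a further one, Sarnp, was lost without control 2, 3 or 4 or tumour 1, 2 or 3 (highest adjusted p = 0.0979).

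Related helicases were compared in 5 pairs for unequal change, by an exact two-sided permutation test of the difference in log2 value within each array over the 70 splits of the 8 arrays. The smallest p this design allows is 0.0286, and p-values were adjusted over the 5 pairs. The difference Ddx21 minus Ddx50 was -0.051 to 0.37 in tumours and -2.24 to -1.76 in controls, so the changes differed by 2.12 (exact p = 0.0286, adjusted p = 0.0714). The difference Ddx39a minus Ddx39b was -0.056 to 0.27 in tumours and -1.67 to -1.28 in controls, and the changes differed by 1.58 (exact p = 0.0286, adjusted p = 0.0714). In both pairs the groups were fully apart and the p-value was the smallest possible, and neither passed after adjustment. With only these 2 of 5 pairs at the smallest p, the adjusted p is 0.0714 whatever the size of the difference. The adjusted result therefore cannot decide on these 2 pairs. For the remaining pairs the groups overlapped. Ddx5 minus Ddx17 was 1.23 to 1.54 in tumours and 1.51 to 1.97 in controls (difference -0.21, exact p = 0.1143). The values were 2.16 to 2.84 and 2.05 to 2.85 for Ddx58 minus Dhx58 in tumours and controls (exact p = 0.6857), and -0.032 to 0.40 and 0.025 to 0.71 for Dhx8 minus Dhx38 (exact p = 0.5143).

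**Figure D4:**
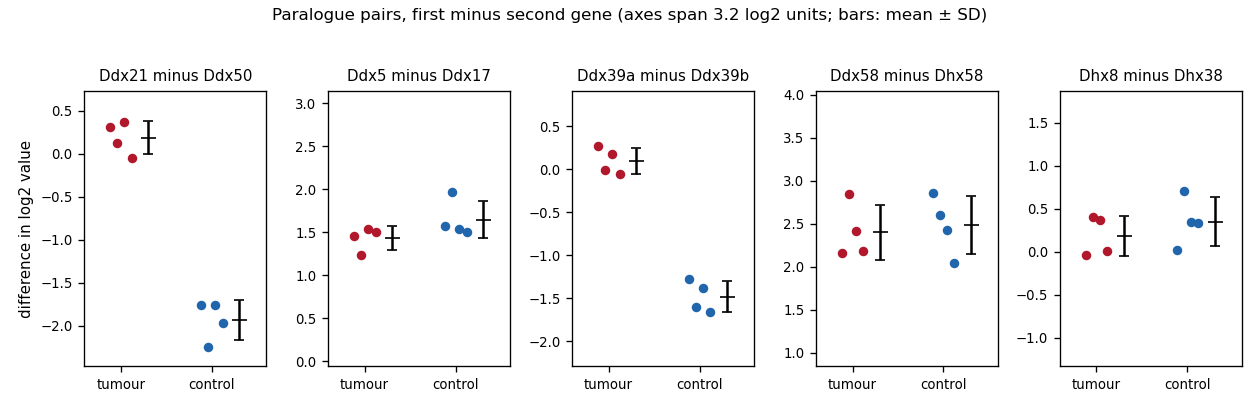
Difference in log2 value between the 2 genes of a pair within each array (y axes, each spanning the same 3.2 log2 units), tumours left and controls right, with the mean ± SD of 4 arrays. Tumours and controls are fully apart for Ddx21 minus Ddx50 and for Ddx39a minus Ddx39b and overlap for the other 3 pairs.

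Of 5 helicases that act in transcription, microRNA processing or assembly of RNA-protein particles, 3 were higher and none lower (median 0.85). Dhx9, known as RNA helicase A, which unwinds long duplexes and bridges transcription factors to RNA polymerase, read 10.83, 10.63, 10.78 and 10.93 in tumours, against 9.88, 9.53, 9.49 and 9.66 in controls. No value of either group came near the other, and the rise was 2.22-fold (log2 change 1.15, SE 0.11, adjusted p = 3.14e-05). Ddx20, also called Gemin3, a member of the SMN complex that builds spliceosomal particles, read 8.62, 8.45, 8.61 and 8.48 in tumours, against 7.69, 7.64, 7.53 and 7.28 in controls. It rose 2.01-fold (log2 change 1.01, SE 0.11, adjusted p = 5.68e-05). Of its 8 measured partners in the SMN complex, 6 rose and none fell, led by Gemin6 (1.75, SE 0.18), Gemin5 (1.35, SE 0.13) and Gemin4 (1.27, SE 0.14), whereas Gemin2 (0.12, adjusted p = 0.455) and Gemin7 (-0.067, adjusted p = 0.735) did not pass. Ddx1, a member of the tRNA ligase complex, read 11.15, 11.11, 11.08 and 11.14 in tumours, against 10.45, 10.07, 10.38 and 10.19 in controls. The tumours differed among themselves by less than 0.1 and were 0.85 higher than the controls (SE 0.10, adjusted p = 0.000137). In the same complex the ligase gene Rtcb rose by 0.94 (SE 0.20) and Fam98a by 0.52 (SE 0.10), and the other 3 genes did not pass. The paralogues Ddx5 and Ddx17, cofactors of the Drosha microRNA processor and of transcription factors, did not pass. Ddx5 read 10.90, 10.78, 11.05 and 10.99 in tumours and 11.09, 11.08, 11.08 and 10.92 in controls (change -0.11, adjusted p = 0.461). Ddx17 read 9.45, 9.55, 9.51 and 9.49 in tumours and 9.52, 9.11, 9.55 and 9.41 in controls (change 0.10, adjusted p = 0.567).

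Helicases of cytoplasmic translation and decay changed little, with 1 of 5 higher, none lower and changes between -0.26 and 0.29. Ddx3x, which helps ribosomes to load on structured messages, read 11.66, 11.57, 11.61 and 11.53 in tumours, against 11.31, 11.21, 11.41 and 11.27 in controls. The groups did not overlap, and the change was 0.29 (SE 0.09, 1.22-fold, adjusted p = 0.0281). It was the smallest change past the threshold among the 51 genes, and it was lost without any 1 of the arrays except control 3 and tumour 4 (highest adjusted p = 0.0773). Ddx3x is X-linked and known to escape X inactivation, and control liver 3, the array with high Xist, held the highest control value; without it the change was 0.33 (adjusted p = 0.0329). A second probe set of Ddx3x changed by 0.65. Ddx6, of decapping and P bodies (0.27, adjusted p = 0.112), Dhx29, of ribosome scanning (0.13, adjusted p = 0.514), Dhx34, of nonsense-mediated decay (-0.12, adjusted p = 0.503), and Dhx36, which opens G-quadruplexes (-0.26, adjusted p = 0.0586), did not pass, although all tumours lay below all controls for Dhx36. In mitochondria, Dhx30, of mitochondrial ribosome assembly, read 7.56, 7.31, 7.43 and 7.09 in tumours, against 6.71, 6.92, 6.87 and 7.01 in controls. It rose by 0.47 without overlap (SE 0.12, adjusted p = 0.0129), and Ddx28, of the mitochondrial large subunit, changed by -0.043 (adjusted p = 0.833).

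The antiviral sensors were the only role group, besides the germ line one, in which no change was above 0, and 1 of the 3 was lower in tumours. Ddx60, an interferon-induced gene that aids antiviral signalling, read 5.99, 5.65, 6.45 and 6.22 in tumours, against 7.06, 6.68, 7.87 and 6.44 in controls. Control 3 was far the highest, tumour 3 and control 4 met at 6.45 and 6.44, and the change was -0.94 (SE 0.28, adjusted p = 0.0305). The change was -0.65 without control 3 (adjusted p = 0.0411), and the call was lost without control 1 or tumour 1, 2 or 4 (highest adjusted p = 0.0842). Ddx58, which encodes the viral RNA sensor RIG-I, read 7.44, 8.38, 7.95 and 7.64 in tumours and 8.17, 7.95, 8.26 and 7.99 in controls (change -0.24, adjusted p = 0.394). Dhx58, which encodes its regulator LGP2, read 5.28, 5.54, 5.53 and 5.46 in tumours and 5.32, 5.34, 5.83 and 5.95 in controls (change -0.16, adjusted p = 0.512). Its values in tumour 1 and controls 1 and 2 lay within the span of the Y-linked genes on control liver 3 (3.46 to 5.39). Dhx58 is thus not clearly above background. Ifih1, which encodes the third RIG-I-like receptor MDA5 and carries no Ddx or Dhx symbol, showed a far larger fall. It read 6.48, 6.57, 6.71 and 6.86 in tumours, against 8.85, 8.46, 9.04 and 8.20 in controls, with a log2 change of -1.98 (SE 0.18, adjusted p = 1.33e-05). Of 6 genes of RIG-I-like receptor signalling, Ifih1 was lower, Trim25, which ubiquitinates RIG-I in human cells, was higher (0.52, SE 0.14; adjusted p = 0.059 without tumour 1), and the other 4 did not pass. Among 10 interferon-stimulated genes 3 were lower and 1 higher (median -0.40). The lower ones were Rtp4 (-1.20, SE 0.19), Stat2 (-0.65, SE 0.16) and Irf9 (-0.64, SE 0.16), and the higher one was Usp18, which removes the ubiquitin-like protein of this response (1.31, SE 0.30). Of 5 macrophage markers 2 were lower and 1 higher. Clec4f and Vsig4, of Kupffer cells, were lower by 1.75 and 2.38, and Cd68 was higher by 2.11. Adgre1 (0.21, adjusted p = 0.677) and Csf1r (-0.17, adjusted p = 0.49) did not pass. The mean level of the 5 markers overlapped between groups, at 7.46 to 8.07 in tumours and 7.77 to 8.76 in controls. The part of macrophages in the fall of Ddx60 was not tested.

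**Figure D5:**
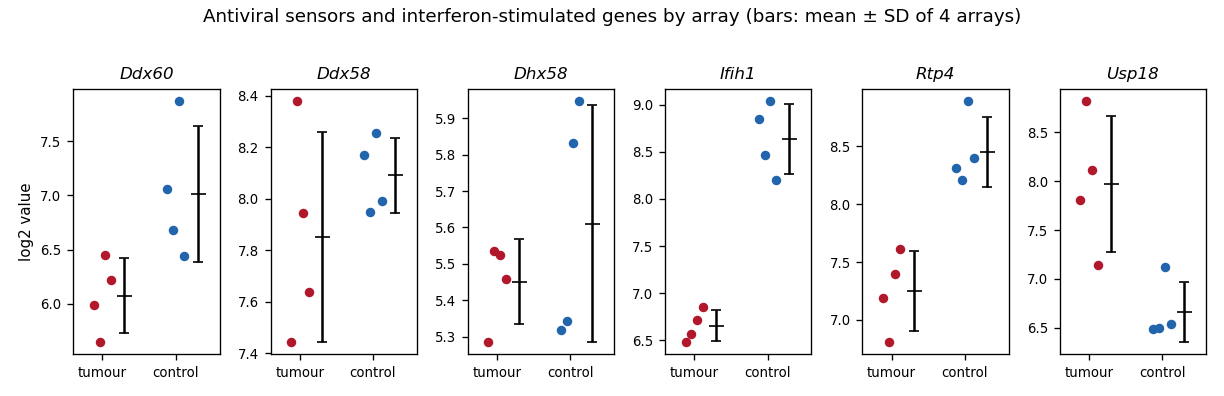
Log2 values on each of the 8 arrays (y axes, each with its own range) for Ddx60, Ddx58 and Dhx58, for the related sensor gene Ifih1 and for the interferon-stimulated genes Rtp4 and Usp18, tumours left and controls right, with the mean ± SD of 4 arrays. All tumours lie below all controls for Ifih1 and Rtp4 and above them for Usp18, while the groups overlap for Ddx60, Ddx58 and Dhx58.

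Helicases of the germ line were dim in both groups. Ddx4, the mouse Vasa gene, read 3.77 to 3.99 in tumours and 3.95 to 4.17 in controls, Ddx25, a testis gene, 4.83 to 5.25 in tumours and 4.92 to 5.13 in controls. These lie within the span of the Y-linked genes on control liver 3 (3.46 to 5.39), so neither is shown to be above background. Ddx43 read 5.02, 5.02, 5.16 and 5.17 in tumours and 5.09, 5.22, 5.99 and 4.94 in controls, and only control 3 was above that span. None of the 3 passed, with Ddx43 at -0.21 (adjusted p = 0.491) and at 0.013 without control 3.

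Of 5 genes whose role is different or less clear, 1 was higher. Ddx11, whose product is a DNA helicase of sister chromatid cohesion rather than a DEAD box RNA helicase, read 7.34, 6.93, 7.11 and 7.09 in tumours, against 6.55, 6.54, 6.50 and 6.59 in controls. The controls were within 0.1 of each other, and the rise was 1.49-fold (log2 change 0.57, SE 0.10, adjusted p = 0.00175). Dhx57 (0.37, adjusted p = 0.0823), Ddx59 (0.070, adjusted p = 0.674), Dhx40 (0.057, adjusted p = 0.822) and Dhx32 (-0.25, adjusted p = 0.106) did not pass, and all tumours were below all controls for Dhx32.

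Among helicases outside the Ddx and Dhx symbols and known cofactors, the share of higher genes differed from list to list. The 3 eIF4A genes, DEAD box proteins of translation initiation and of the exon junction complex, were all higher: Eif4a3 by 0.99 (SE 0.11), Eif4a1 by 0.97 (SE 0.10) and Eif4a2 by 0.48 (SE 0.14). The Eif4a2 call was lost without control 2 or 4 or tumour 1 or 3 (highest adjusted p = 0.0713). Of 16 other RNA helicases 8 were higher and 2 lower (median 0.46), with Mtrex, of the nuclear exosome, at 1.29 (SE 0.13), Aqr, of the spliceosome, at 1.14 (SE 0.17), and Znfx1 at -0.52 (SE 0.09) besides Ifih1. Proteins with a G-patch activate DEAH helicases, and of 19 such genes 5 were higher and 1 lower (median 0.22). Over all genes tested, 16.2% were higher and 12.7% lower. The higher G-patch genes included Nkrf (1.16, SE 0.17) and Gpatch4 (1.09, SE 0.15), and 13 did not pass. The lower one was Gpatch11 (-0.36, SE 0.11), whose call was lost without control 2 or 3 or tumour 1, 3 or 4 (highest adjusted p = 0.102). Gle1 and proteins with the MIF4G fold stimulate DEAD box helicases, and of 6 such genes 5 were higher and none lower (median 0.59). Among them were Cnot1, the scaffold of the deadenylase complex that binds Ddx6, at 0.89 (SE 0.10), and Cwc22, partner of Eif4a3, at 0.89 (SE 0.10). The Eif4g2 call was lost without control 1, 2 or 4 or tumour 1 or 3 (highest adjusted p = 0.0635). Of the other higher genes counted in these lists, Mov10, Helz, Sugp1 and Aggf1 also lost their calls without some single arrays.

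The tumours differed among themselves in the higher helicase genes. Tumour 1 held the highest of the 4 tumour values for 19 of the 22 higher genes, tumour 2 for 2, tumour 3 for none and tumour 4 for 1, whereas tumour 1 held the highest value for 47.4% of all genes that were higher. The lowest tumour value lay in tumour 2 for 10 of the 22, in tumour 4 for 9, in tumour 3 for 3 and in tumour 1 for none. Over all genes that were higher, the corresponding shares were 34.6%, 38.8%, 16.6% and 9.95%. The mean level of the 22 genes was 9.02, 8.75, 8.89 and 8.71 in tumours 1 to 4, against 7.94, 7.84, 7.99 and 8.001 in controls 1 to 4, a gap that follows from the choice of called genes. Over all 51 genes the mean level was 7.96 to 8.15 in tumours and 7.55 to 7.71 in controls. Without tumour 1, 18 helicase genes and 2771 of all 19937 genes were higher.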

How the data were processed

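The authors deposited log2 values of 34760 probe sets on each array. RMA is named in the submitters' processing notes, with R 3.0.2; it corrects background, normalises between arrays and summarises probes. Its settings and genome build are not given in the sources used here. The deposited log2 values were used unchanged. The platform's annotation named 22961 probe sets, and 1321 with several symbols were set aside. The remaining 21640 gave 19937 genes, the highest-mean probe set being kept for 954 genes with several. All 51 helicase genes matched a RefSeq gene by identifier. RefSeq names and promoter windows came from GRCm38.p6.

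Tumours and controls were compared by linear models with moderated variances (limma 3.58.1, R 4.3.3), without covariates and with Benjamini-Hochberg adjustment over all genes. Errors are SD of 4 arrays for means and SE from limma for changes. Precision is limited by having 4 arrays a group. Paralogue pairs were tested by exact permutation (Python 3.11.15, pandas 2.3.3, plots with matplotlib 3.10.9). The fit was tested on simulated data. Members, role and partner lists were chosen with earlier results of these data known. Values on every array were given for up to 3 called genes per role with the largest change, the largest one moving the rarer way, the largest where none was called, every lower gene and all paralogue pairs; partner lists name up to 3 called genes. The promoter of Dhx33 and the values of Znfx1, Snrnp200, Irf9, Gpatch11, Gemin2 and Gemin7 fall outside this rule and were chosen after their values were seen. Alternatives were quantile normalisation, median subtraction, dropping the dimmest 33.3% of genes, robust variances with a trend on intensity, weights per array, a replicate block, averaged probe sets, omission of single arrays, and testing for more than 1.5-fold.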

Additional observations from a re-analysis of the deposited data

Results flagged for a closer look

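Among the 102 sets of 4 arrays (51 genes in 2 groups), 7 had 1 array far from the other 3 (gap to the nearest over the whole range above Dixon's critical value); chance gives about 1 in 20 such sets. Control 4 was the distant array in 5 of them. It read high for Ddx39b (8.26, others 7.81 to 7.84), Ddx49 (7.12, others 6.72 to 6.78), Dhx16 (8.19, others 7.79 to 7.86) and Dhx33 (7.44, others 7.10 to 7.15), and low for Ddx5 (10.92, others 11.08 to 11.09). Among tumours, Ddx10 was high in tumour 1 (10.19, others 9.89 to 9.92) and Ddx52 low in tumour 4 (8.22, others 8.46 to 8.48). Without control 4, or without tumour 4, Dhx33 passed the threshold.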

How the results depend on the processing

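The count of higher helicase genes was 22, and 18 to 24 without 1 array; the test against a 1.5-fold change left 7. The count of lower ones was 2: 4 with quantile normalisation (Dhx32 and Dhx36 added), 3 without the dimmest genes, 1 with the replicate block, 0 against a 1.5-fold change and 0 to 2 without 1 array (0 without control 1). Over all genes the counts without 1 array were 2763 to 3277 higher and 2060 to 2561 lower. Quantile normalisation gave 2691 lower genes over all 19937, and 2319 of the 13291 genes kept were lower without the dimmest. The replicate block gave 2859 higher and 2148 lower over all genes. With the replicate number as a block, 19 helicase genes were higher, and Ddx24, Ddx3x, Dhx35 and Ddx50 were no longer called. Same-numbered samples correlated in their deviations from the group means at -0.057, 0.0048, 0.055 and -0.32. No correlation was above 0.055. These values cannot decide whether same-numbered samples were matched, since a match may leave no shared deviation. Array weights gave 25 higher helicase genes of 51, where 3563 of all 19937 genes were higher. Dropping the dimmest genes gave 24 of the 47 kept, where 3217 of all 13291 genes kept were higher. The share of all genes called thus also depends on how many dim genes are counted. The cause of these differences was not tested. With quantile normalisation the median change over all genes was -0.0061, against -0.035 in the main fit. Ddx18 then changed by 1.45 against 1.54 and Ddx50 by -0.40 against -0.32. The dim gene Ddx4 moved the other way, to -0.057 against -0.16. Changes near 0 switched sign: with quantile normalisation Ddx19b was -0.0284, Ddx25 0.0663, Dhx16 -0.0509 and Dhx40 -0.032, with array median subtraction Ddx25 was 0.0078, and with array weights Ddx28 was 0.0099 and Dhx40 -0.0121. Without 1 array Ddx19b spanned -0.0826 to 0.0885, Ddx25 -0.0911 to 0.0495, Ddx28 -0.124 to 0.0345, Ddx43 -0.34 to 0.0126, Dhx16 -0.034 to 0.12 and Dhx40 -0.0458 to 0.13. The difference Ddx21 minus Ddx50 spanned 2.02 to 2.20, Ddx39a minus Ddx39b 1.52 to 1.65, Ddx5 minus Ddx17 -0.26 to -0.10, Dhx8 minus Dhx38 -0.28 to -0.048, and Ddx58 minus Dhx58 -0.23 to 0.0419. With 4 arrays a group, small changes cannot be told from the spread, and genes as dim as Ddx4 are not shown to be above background.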
